A study of Caenorhabditis elegans
Pristionchus pacificus with 6 samples.

Results

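The 10 genes described here encode the core machinery of mitosis in Caenorhabditis elegans: 4 mitotic kinases (cdk-1, plk-1, air-1 and air-2), 4 B cyclins (cyb-1, cyb-2.1, cyb-2.2 and cyb-3) and the 2 activators of the anaphase promoting complex (fzy-1 and fzr-1). They were chosen by identifier, as 10 of the 73268 rows of a table of raw read counts, with no threshold on measured values. The deposited table holds identifiers only, so the pairing of each identifier with its symbol came with the choice of the genes. All 10 symbols are protein-coding genes in the RefSeq gene table for WBcel235.

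RNA was sequenced from anterior intestines dissected from adult hermaphrodites at 72 hours after egg laying at 20 °C. The CDK-2gut(-) animals, with reduced intestinal ploidy, carried cdk-2::ZF::GFP, zif-1(gk117) and the transgene asp-1p::vhhGFP4::zif-1, in which the promoter of the aspartyl protease gene asp-1 drives ZIF-1, a substrate adaptor of a ubiquitin ligase, joined to a nanobody that binds GFP. The control animals carried the same tagged cdk-2 and the same zif-1 mutation but not the transgene, so both groups differ from wild type. Each strain gave 3 libraries, and lysate of intestines from a second nematode, Pristionchus pacificus, dissected at 96 hours, was added to each as a spike-in. Lysates were pooled before extraction. The labels give neither the number of animals behind a library nor separate cultures for the replicates, and p-values here cover only library-to-library spread, part or all of which may be technical.

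In dividing cells, CDK-1 bound to a B cyclin drives entry into mitosis, PLK-1 (Polo kinase) and AIR-1 (Aurora A) act on centrosomes and the spindle, and AIR-2 (Aurora B) acts on chromosomes and at cytokinesis. FZY-1 (Cdc20) turns on the anaphase promoting complex at the onset of anaphase, which marks B cyclins for destruction, and FZR-1 (Cdh1) keeps that complex active after mitosis; in Drosophila the Cdh1 counterpart is needed for the switch from mitotic cycles to endocycles. Larval intestinal cells of C. elegans become polyploid by repeated S phases without division. In the adult hermaphrodite the germ line, which lies beside the gut, holds dividing cells. CDK-2 acts mainly in S phase. The identifiers could not be matched to symbols beyond the 10 genes, so markers of intestine, germ line and other tissues, cdk-2 itself and the remaining mitotic genes were not analysed here. Whether these transcripts came from intestinal cells or from neighbouring tissue was not tested, and in such bulk RNA fewer expressing cells and less RNA per cell cannot be told apart.

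The libraries held 11273570 to 15874554 C. elegans counts in CDK-2gut(-) and 9432973 to 10665065 in control. Levels are given as counts scaled to a total of 1000000 C. elegans counts per library (CPM), in which 1 read was worth 0.0630 to 0.0887 CPM in CDK-2gut(-) and 0.0938 to 0.106 CPM in control. The 10 genes were thinly sampled, with means of 15.7 to 127 counts per library, and 8 of them lay below the median of all tested genes, 73.8 counts. All 10 passed the filter on low counts. One library has to be introduced before the results: control 3 had the lowest CPM of the 6 libraries for all 10 genes and held 6 or fewer counts for 8 of them. After the TMM scaling described below, fzr-1 was not lowest there, at 8.30 in control 3 against 8.02 in CDK-2gut(-) 3. The log2 folds are therefore given with and without it.

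None of the 10 genes differed detectably between the strains. For 9 of them control 3 read under 0.5 of the lowest of the other libraries (for air-2 on 0 against 3 counts) and widened the spread among controls, whereas fzr-1 lay between 6.57 and 14.05 CPM in all 6 libraries. No gene had groups that did not overlap, against 45.5% of all 8309 tested C. elegans genes in CPM and 38.4% after the TMM scaling described below. The summed level of the 10 genes was 74.0, 53.3 and 36.1 CPM in CDK-2gut(-) libraries 1, 2 and 3, and 47.4, 67.9 and 9.36 CPM in control libraries 1, 2 and 3. The sum averaged 54.5 ± 18.99 CPM in CDK-2gut(-) and 41.5 ± 29.7 CPM in control (SD, n = 3 each), a ratio of 1.31 that became 0.945 without control 3. CPM values move with the most abundant transcripts: the top 10 C. elegans genes took 53.99% to 55.8% of counts in CDK-2gut(-) and 60.4% to 66.4% in control, and with these plain totals the median log2 fold of all tested genes was 0.51.

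**Figure D1:**
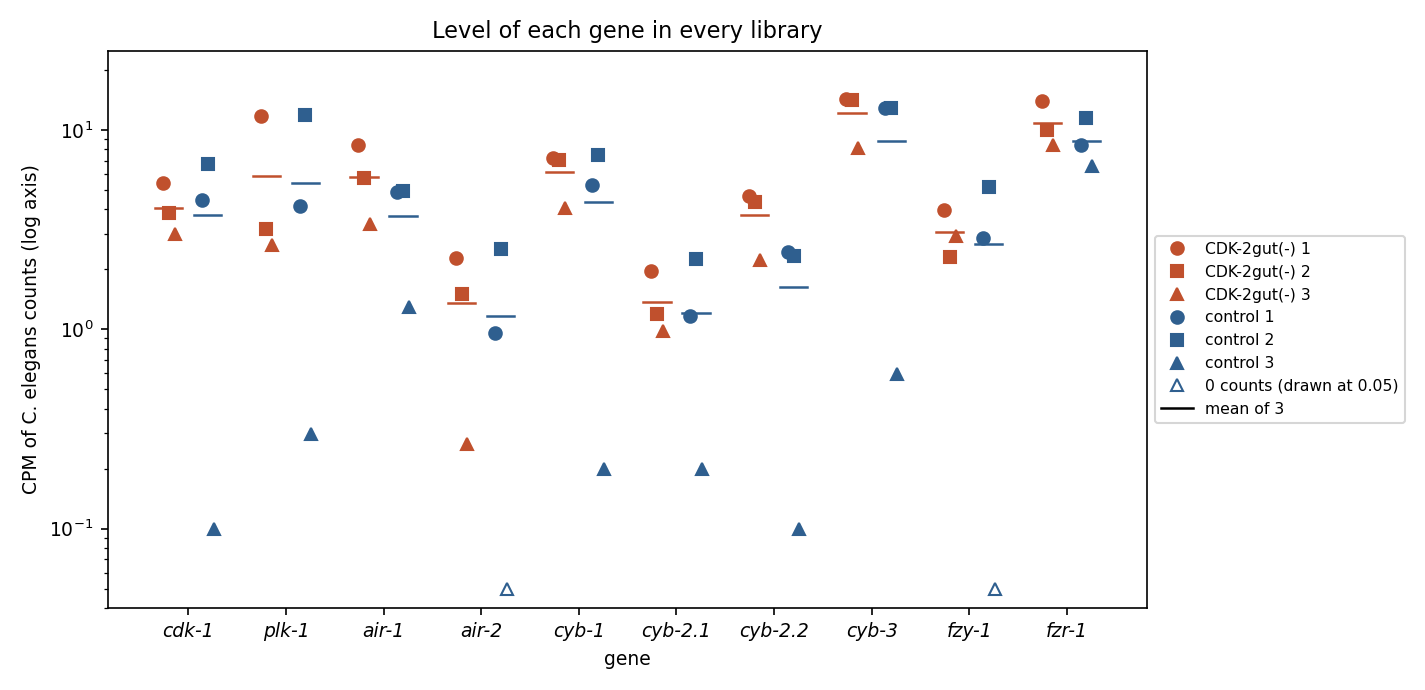
Level of each of the 10 genes, in CPM of C. elegans counts on a log axis, in 3 CDK-2gut(-) libraries (left of each pair) and 3 control libraries (right), with symbols for the replicate number and lines for the mean of 3; open symbols mark 0 counts. Control 3 lies lowest for every gene; for air-2 its 0 counts cannot be told from the 3 counts of CDK-2gut(-) 3.

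The kinases varied widely within both strains. The gene for the kinase at the centre of mitotic entry, cdk-1 (WBGene00000405), stood at 5.42, 3.82 and 3.02 CPM in CDK-2gut(-) libraries 1, 2 and 3, and at 4.45, 6.75 and 0.0996 CPM in control libraries 1, 2 and 3. The last of these values is a single count. CDK-2gut(-) lay inside the range of control. Its log2 fold within the C. elegans transcriptome, scaled by the trimmed mean of M-values (TMM), was -0.24 ± 0.94 (SE), with a p of 0.907 in edgeR's quasi-likelihood test after Benjamini-Hochberg adjustment. Without control 3 it was -0.82 ± 0.34 (SE), with an unadjusted edgeR p of 0.0375 and an adjusted p of 0.131. That adjusted p was the lowest among the 10 genes in that fit. Control 3 was singled out because it was low for these genes, so this fold and its p were largely set by that choice. Without control 2 instead, the log2 fold of cdk-1 was 0.29.

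The Polo kinase gene plk-1 (WBGene00004042) read 11.8, 3.18 and 2.66 CPM in CDK-2gut(-), and 4.13, 11.9 and 0.299 CPM in control. It was high in 1 library of each strain, CDK-2gut(-) 1 and control 2, which were also the libraries with the highest sum of the 10 genes. Its levels spanned 4.43-fold among CDK-2gut(-) libraries and 2.88-fold between controls 1 and 2. As a share of the counts of the 10 genes, plk-1 took 15.9%, 5.97% and 7.37% in CDK-2gut(-), and 8.72%, 17.5% and 3.19% in control, so in those libraries it exceeded its level elsewhere by a larger factor than the other 9 genes together did. The log2 fold was -0.26 ± 1.07 (SE; edgeR adjusted p = 0.913), and -0.81 ± 0.71 (SE) without control 3.

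The Aurora A gene air-1 (WBGene00000098) kept more of its level in control 3 than any other of the 10 genes except fzr-1. It was measured at 8.38, 5.73 and 3.37 CPM in CDK-2gut(-), and at 4.88, 4.97 and 1.29 CPM in control. Control 3 held 13 counts of it, 26.3% of the mean CPM of controls 1 and 2. The 2 annotated snoRNA genes that overlap air-1 in the RefSeq table could share reads with it. Its log2 fold of 0.24 ± 0.49 (SE; edgeR adjusted p = 0.814) became -0.15 ± 0.37 (SE) without control 3.

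The Aurora B gene air-2 (WBGene00000099) was the kinase gene with the fewest counts. It gave 2.27, 1.51 and 0.266 CPM in CDK-2gut(-), and 0.954, 2.53 and 0 CPM in control. CDK-2gut(-) 3 held 3 counts and control 3 held none, which allows up to 0.299 CPM there (a floor of 3 counts, for counting error only). At this depth replicate 3 of the strains could not be told apart for air-2. The log2 fold was -0.16 ± 1.095 (SE; edgeR adjusted p = 0.949), and -0.72 ± 0.75 (SE) without control 3.

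Among the B cyclin genes, cyb-2.2 had the lowest adjusted p with all libraries and cyb-3 the lowest without control 3. The B3-type cyclin gene cyb-3 (WBGene00000868) was at 14.3, 14.1 and 8.16 CPM in CDK-2gut(-), and at 12.8, 12.9 and 0.598 CPM in control. Controls 1 and 2 differed by a factor of 1.01, and the drop to 6 counts in control 3 made the control mean of 8.79 ± 7.09 CPM (SD, n = 3) lower than the CDK-2gut(-) mean of 12.2 ± 3.48 CPM (SD, n = 3). The log2 fold was 0.10 ± 0.88 (SE; edgeR adjusted p = 0.961) with all libraries and -0.47 ± 0.26 (SE; adjusted p = 0.270) without control 3, of the opposite sign. It also fell just below 0, at -0.020, without CDK-2gut(-) 2.

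The B1-type gene cyb-1 (WBGene00000865) showed the same pattern, at 7.24, 7.08 and 4.08 CPM in CDK-2gut(-), against 5.30, 7.501 and 0.199 CPM in control. Its log2 fold was 0.14 ± 0.88 (SE; edgeR adjusted p = 0.943), and -0.43 ± 0.31 (SE; adjusted p = 0.407) without control 3.

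The paralogs cyb-2.1 and cyb-2.2 resemble each other closely in sequence, and since reads mapping to several places were left out of the table, both may be undercounted. For cyb-2.1 (WBGene00000866) the levels were 1.95, 1.19 and 0.976 CPM in CDK-2gut(-), and 1.17, 2.25 and 0.199 CPM in control. For cyb-2.2 (WBGene00000867) they were 4.66, 4.37 and 2.22 CPM in CDK-2gut(-), and 2.44, 2.34 and 0.0996 CPM in control. Of the 10 genes, cyb-2.2 came nearest to separated groups: CDK-2gut(-) 1 and 2 lay above all controls, while CDK-2gut(-) 3 lay just below controls 1 and 2. It had the largest positive log2 fold of the 10, 0.82 ± 0.78 (SE; edgeR adjusted p = 0.565), and 0.26 ± 0.44 (SE; adjusted p = 0.748) once control 3 was left out. For its paralog cyb-2.1 the log2 fold was -0.18 ± 0.72 (SE), at an edgeR adjusted p of 0.910, and -0.67 ± 0.55 (SE) without control 3. The difference between the paralogs was not tested.

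The 2 activators of the anaphase promoting complex parted in control 3. The Cdc20 gene fzy-1 (WBGene00001511) was at 3.97, 2.31 and 2.93 CPM in CDK-2gut(-), and at 2.86, 5.16 and 0 CPM in control. The Cdh1 gene fzr-1 (WBGene00001510) was at 14.05, 10.02 and 8.43 CPM in CDK-2gut(-), and at 8.37, 11.5 and 6.57 CPM in control. Control 3 thus held 66 counts of fzr-1 (exact 95% Poisson interval 51.04 to 83.97) and 0 of fzy-1.

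With all 6 libraries, fzr-1 had the smallest standard error of the 10 genes. It averaged 10.8 ± 2.90 CPM in CDK-2gut(-) and 8.83 ± 2.51 CPM in control (SD, n = 3 each), with coefficients of variation of 26.7% and 28.4%. Across control libraries the other 9 genes had coefficients of variation of 56.4% to 110%, which control 3 widened. Within CDK-2gut(-), fzr-1 varied about as little as fzy-1 (27.4%), cyb-3 (28.6%), cyb-1 (29.03%) and cdk-1 (29.9%). The log2 fold of fzr-1 was -0.11 ± 0.24 (SE; edgeR adjusted p = 0.830), with a 95% interval for the fold of 0.628 to 1.36. Without control 3 it was -0.25 ± 0.25 (SE), a standard error close to the 0.26 of cyb-3. Another protein-coding gene, ZK1307.7, overlaps fzr-1 in the RefSeq table, and the sources used here do not say how reads common to both were counted.

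A ratio of 2 genes within a library needs no scaling. Reads of fzr-1 outnumbered those of fzy-1 by 3.52, 4.29 and 2.85 to 1 in CDK-2gut(-) libraries (0.5 added to each count), and by 2.89 and 2.23 to 1 in controls 1 and 2. In control 3 the ratio was 22 to 1 with fzy-1 set to a floor of 3 counts. That value leaves out the counting error of fzr-1 and is not a lower limit. The mean log2 ratio was 1.81 ± 0.29 (SD, n = 3) in CDK-2gut(-), whereas the control mean depends on the value put in place of the 0 counts. CDK-2gut(-) minus control came to -0.57 at the floor of 3 counts, -0.80 with 2 added to each count and -1.44 with 0.5 added, with p = 0.9 for each in an exact permutation test (two-sided; 0.1 is the smallest p that 3 against 3 libraries allow). Without control 3 the difference was 0.47, of the opposite sign.

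Counts of fzr-1 relative to cdk-1 were also highest in control 3. They stood at 2.58, 2.61 and 2.77 to 1 in CDK-2gut(-), and at 1.87 and 1.70 to 1 in controls 1 and 2, with 66 counts against 1 in control 3. Outside control 3, the CDK-2gut(-) ratios were all higher than the control ones, a pattern picked out after the values were seen and not tested. The ratio of fzr-1 to cyb-2.1 parted in the same way, at 7.10, 8.16 and 8.30 to 1 against 6.91 and 5.04 to 1. Outside control 3, the ratios of fzr-1 to the other genes overlapped between the strains.

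As a share of all counts of the 10 genes, fzr-1 took 18.98%, 18.8% and 23.3% in CDK-2gut(-) libraries 1, 2 and 3, and 17.7%, 16.99% and 70.2% in control libraries 1, 2 and 3. The exact 95% binomial interval for control 3 was 59.9% to 79.2%, and the highest upper bound in any other library was 27.8%. The 4 B cyclin genes made up 38.04%, 50.1% and 42.8% in CDK-2gut(-), and 45.9%, 36.9% and 11.7% in control. The 4 kinase genes made up 37.6%, 26.7% and 25.8% in CDK-2gut(-), and 30.4%, 38.5% and 18.1% in control, where 13 of the 17 kinase counts of control 3 were air-1. In the 5 libraries other than control 3, the kinase and B cyclin shares varied as much within a strain as between strains.

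**Figure D2:**
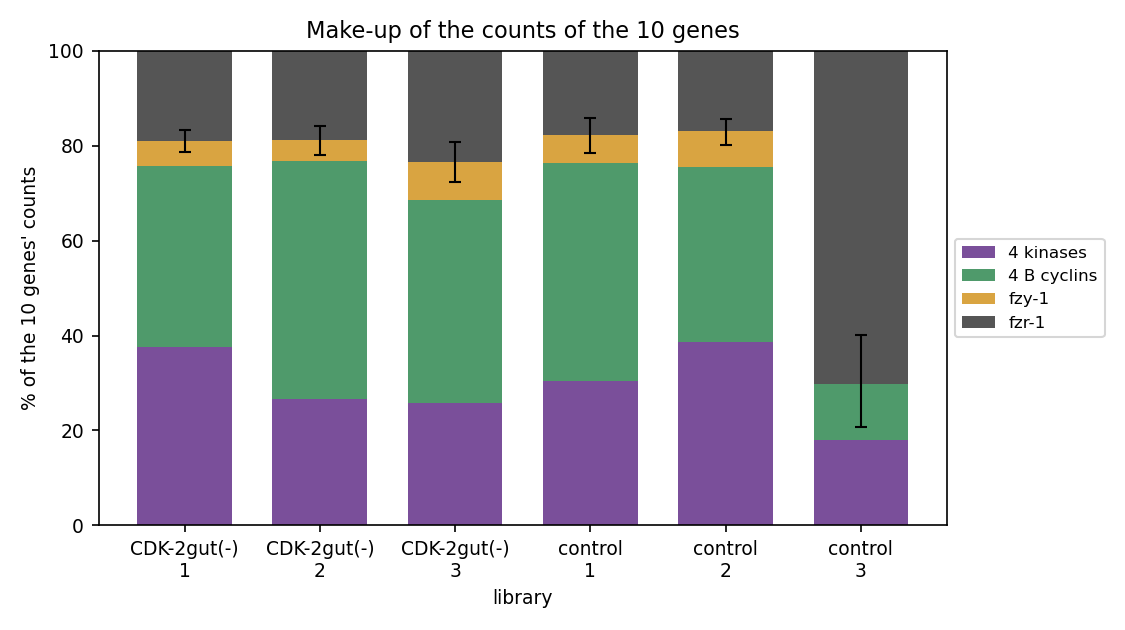
Share of the counts of the 10 genes, in percent, taken by the 4 kinases, the 4 B cyclins, fzy-1 and fzr-1 in each library, with exact 95% binomial intervals at the boundary below fzr-1. In control 3, fzr-1 takes 70.2%, against 16.99% to 23.3% in the other 5 libraries.

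The low readings of control 3 extended beyond these genes. It was under 0.25 of the lowest of the other 5 libraries for 8 of the 10 genes, all except air-1 and fzr-1, and under 0.5 of it for 9, all except fzr-1. Both counts include air-2, for which 0 counts stand against 3 in the next lowest library, too few to tell them apart. Over all 8309 tested C. elegans genes these shares were 7.80% and 14.9%. Among the 4466 C. elegans genes within the range of mean counts of the 10, 418 genes (9.36%) were under 0.25 in control 3, while the other 5 libraries each had 1 to 49 such genes (0.0224% to 1.097%). The 3824 P. pacificus genes in that range of counts were under 0.25 for 1.203% in control 3 and for 1.33% in CDK-2gut(-) 3. By this measure, low readings of control 3 were several times more frequent among C. elegans genes than in the spike-in of the same library. Deviations of the 2 number 3 libraries, however, correlated at 0.848 over P. pacificus genes, against 0.205 over C. elegans genes. A spike-in gene similarly low in both of these libraries is under 0.25 in neither. The spike-in share may be held down in this way and is no baseline for the C. elegans share. This threshold was set after the values were seen, and what sets control 3 apart was not tested.

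**Figure D3:**
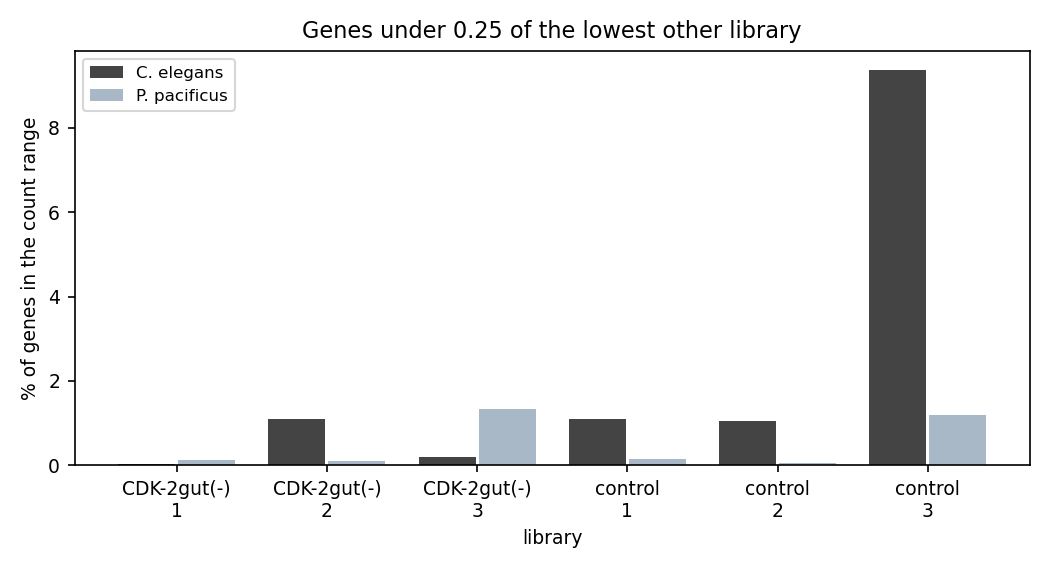
Percentage of genes, within the mean count range of the 10 genes, whose CPM in a library is under 0.25 of the lowest of the other 5 libraries, for C. elegans (dark) and P. pacificus (light). Control 3 stands at 9.36% for C. elegans, and no other bar exceeds 1.33%. A gene similarly low in both libraries of a number is counted in neither.

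Libraries of the same number shared their ratio to the spike-in, with 5.19, 4.61 and 2.78 C. elegans counts per P. pacificus count in CDK-2gut(-) libraries 1, 2 and 3 and 5.35, 4.51 and 2.78 in control, so the values were also compared number by number. In CPM, CDK-2gut(-) was higher than the control of its number for 10 genes in number 1, 3 genes in number 2 and 10 genes in number 3. After TMM scaling these counts were 6, 1 and 9. With plain totals the median log2 fold of all tested genes was itself 0.51. The share of all genes that were higher number by number was not computed. Only air-1, cyb-2.2 and cyb-3 were higher in all 3 numbers in CPM, and only cyb-2.2 also after TMM scaling. Per spike-in count the same genes were higher, but within a number that scale nearly repeats CPM, given the shared ratios above. In the TMM-scaled fit with the number as a block, the log2 fold of cyb-2.2 was 1.198 ± 0.70 (SE; edgeR adjusted p = 0.325), and against the spike-in it was 1.65 ± 0.73 (SE; edgeR adjusted p = 0.158), the lowest adjusted p of the 10 genes in each of these fits. Neither passed the threshold, and the comparison in number 3 rests on control 3.

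In CPM, the remaining libraries also ordered the 10 genes in a largely common way. CDK-2gut(-) 1 was the highest CDK-2gut(-) library for all 10 genes, CDK-2gut(-) 3 the lowest for 9 (for fzy-1 it was CDK-2gut(-) 2), and control 2 the highest control for 9 (for cyb-2.2 it was control 1). All 6 libraries considered, the highest CPM was in control 2 for 6 genes and in CDK-2gut(-) 1 for 4. Part of this order did not hold after TMM scaling. CDK-2gut(-) 2 then exceeded CDK-2gut(-) 1 for cyb-1 (6.13 against 5.73), cyb-2.2 (3.79 against 3.69) and cyb-3 (12.2 against 11.3). Control 1 also exceeded control 2 for air-1 (5.76 against 5.11) and cyb-3 (15.2 against 13.3). CDK-2gut(-) 1 was then the highest of all libraries only for air-1. The share of all genes with this order was not computed. Of 3555 other genes with a mean of at least 100 counts, the closest in profile to the 10 genes were WBGene00000913 and WBGene00004391, which the files pair with no symbol. The Pearson correlation of their log2 CPM with the mean standardized profile was 0.995 for each over 6 libraries, given as a description; the libraries share their depth and control 3. WBGene00004391 stood at 18.2, 11.6 and 5.68 CPM in CDK-2gut(-), and at 6.68, 13.1 and 0.299 CPM in control.

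Tested across the whole C. elegans transcriptome, the TMM-scaled fit called 0 of the 10 genes in either direction, against 18.6% of all 8309 genes (11.8% higher and 6.84% lower in CDK-2gut(-); edgeR quasi-likelihood test, adjusted p under 0.05). None had an unadjusted p under 0.05, and DESeq2 also called 0. The log2 folds ranged from -0.26 for plk-1 to 0.82 for cyb-2.2, with 4 above and 6 below 0. Their median was -0.13, beside 0.10 for all tested genes. The 95% intervals were wide: for fzy-1 the fold lay between 0.163 and 5.02, and for cdk-1 between 0.179 and 3.997.

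**Figure D4:**
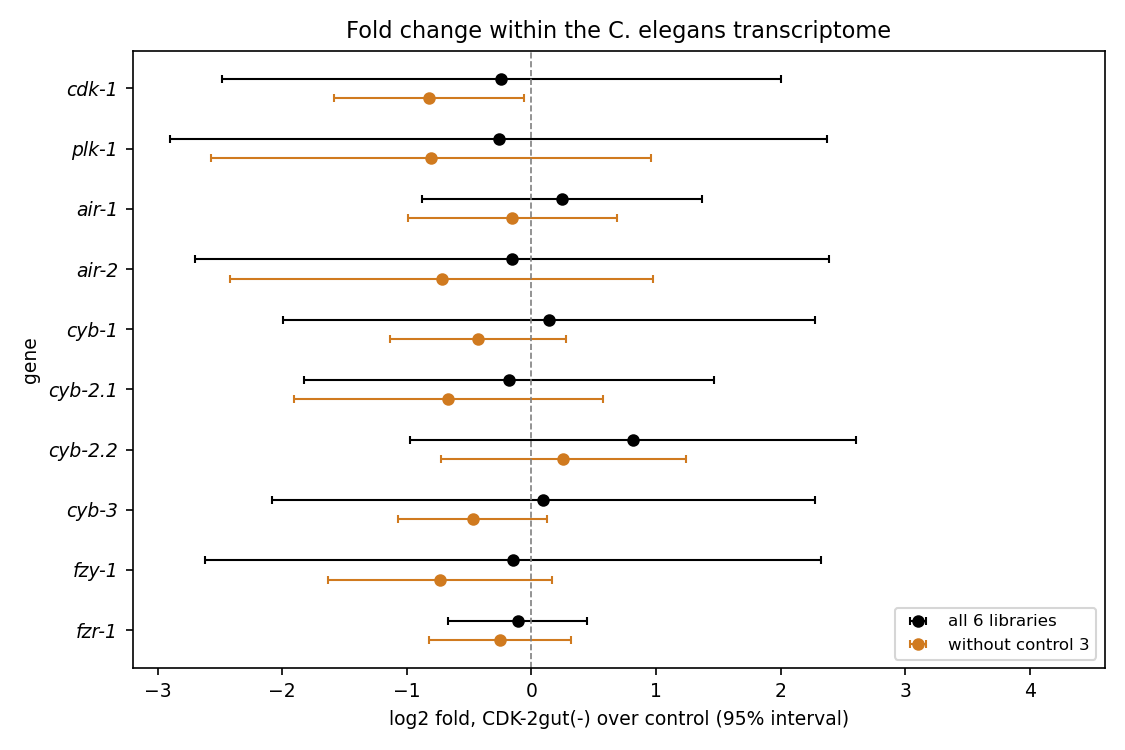
Log2 fold of CDK-2gut(-) over control with 95% intervals from the TMM-scaled edgeR fit, for each gene with all 6 libraries (black) and without control 3 (orange). All intervals include 0 except that of cdk-1 without control 3, which runs from -1.58 to -0.06 before any adjustment for the number of genes tested.

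Without control 3, the fit again called 0 of the 10 genes, against 19.3% of the 8907 genes then tested (12.4% higher and 6.86% lower in CDK-2gut(-)), and 1 gene, cdk-1, had an unadjusted p under 0.05. The log2 folds then lay below 0 for 9 genes, with a median of -0.57 beside 0.01 for all tested genes; cyb-2.2 alone stayed above 0. The interval for fzy-1 narrowed to folds of 0.322 to 1.12. Control 3 was left out because it was low for these genes, so this downward shift was largely set by that choice. Without control 2 instead, 9 of the 10 log2 folds lay above 0, with a median of 0.48 beside 0.11 for all tested genes.

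Set against the spike-in, the 10 genes again gave 0 calls, against 18.9% of all 8309 genes (16.4% higher and 2.47% lower in CDK-2gut(-)), with 0 at an unadjusted p under 0.05. All 10 log2 folds were above 0 in this scaling with all 6 libraries, from 0.12 for cdk-1 to 1.196 for cyb-2.2. Without control 3, 3 lay above 0 and 7 below, and without CDK-2gut(-) 1, 5 lay above and 5 below. Leaving out any other single library kept all 10 above 0. With all 6 libraries, however, this scaling moved the median of all genes to 0.55. Relative to it the median of the 10 genes stood at -0.23, as in the TMM scaling, where it was also -0.23. Without control 3 these relative medians were -0.55 with the spike-in and -0.58 with TMM. They turned positive without control 2, at 0.19 with the spike-in and 0.37 with TMM, and with TMM also without CDK-2gut(-) 3, at 0.04. The sign of the 10 genes relative to all genes thus depended on which libraries were included. Scaled to 1000000 P. pacificus counts, the summed 10 genes read 384, 246 and 100.2 in CDK-2gut(-), and 254, 306 and 26.0 in control, again with overlap between the strains.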

How the data were processed

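The deposited table holds raw gene counts of both species, as whole numbers without normalization. The submitters' processing notes name STAR and featureCounts; versions, builds and the strand setting are not given in the labels or the table. By its name, the table leaves out multi-mapping reads. The first 46958 rows were taken as C. elegans and the other 26310 as P. pacificus, a boundary inferred from the counts. None of the identifiers occurs in the RefSeq table, so the gene lists and tissue markers planned by symbol were not run.

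Genes were kept with filterByExpr (8309 C. elegans, 6645 P. pacificus). Strains were compared with edgeR 4.0.16 (R 4.3.3) robust quasi-likelihood tests, Benjamini-Hochberg adjusted over all genes tested at 0.05, with library sizes from C. elegans totals times TMM factors or from P. pacificus totals times TMM factors over their genes. Standard errors were taken as the absolute log2 fold over the root of the F statistic. DESeq2 1.42.0, other scalings, no filter, the replicate number as a block and leaving out libraries were alternatives. Intervals on counts cover counting error only, since reads carry no molecular identifiers.

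Deviations from the strain means of same-numbered libraries correlated at 0.122, -0.0475 and 0.205 over C. elegans genes for numbers 1, 2 and 3 (0.568, 0.581 and 0.848 over P. pacificus genes), so the numbers were not taken to pair the C. elegans values (threshold 0.1 for each). The main spike-in-scaled fit thus did not model what libraries of the same number shared in the spike-in. With the number as a block, that fit called 1744 C. elegans genes higher and 241 lower in CDK-2gut(-), with 0 of the 10 genes called. All 10 genes were named in full, and the genes and lists were chosen with earlier results of these data known.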

Additional observations from a re-analysis of the deposited data

How the results depend on the processing

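The count of called genes was 0 in every setting run, in both scalings, including an adjusted p of 0.01, no filter, each library left out and, added after the data were seen, replicate 3 of both strains left out; DESeq2 was run on the C. elegans composition only and also gave 0. Single log2 folds were less stable: over 12 settings and 10 genes, 28 of 120 values had another sign than in the TMM-scaled fit, none of them called. Of these, 6 came with plain C. elegans totals, which moved the median of all tested genes to 0.51, against 0.10 with TMM, and so say little on single genes; these totals gave 0.12 for cdk-1, 0.11 for plk-1, 0.22 for air-2, 0.19 for cyb-2.1, 0.20 for fzy-1 and 0.30 for fzr-1. Median-of-ratios size factors gave -0.0015 for cyb-3. In the fit with a replicate block the values were 0.32 for cdk-1, 0.27 for plk-1, 0.24 for air-2, 0.093 for cyb-2.1 and 0.42 for fzy-1, and the block changed no call, with 0 genes called in either scaling; the median of the 10 genes relative to all genes was then 0.16 in both scalings. Leaving out single libraries gave -0.82 to 0.29 for cdk-1, -1.15 to 0.81 for plk-1, -0.15 to 0.49 for air-1, -0.72 to 0.90 for air-2, -0.43 to 0.60 for cyb-1, -0.67 to 0.41 for cyb-2.1, -0.47 to 0.54 for cyb-3 and -0.73 to 0.55 for fzy-1; cyb-2.2 (0.26 to 1.27) and fzr-1 (-0.26 to -0.017) kept their sign. Without replicate 3 of both strains, cyb-1 was at -0.24, cyb-3 at -0.27 and fzy-1 at -0.75. The log2 ratio of fzr-1 to fzy-1 differed by -2.48 to 0.47 when single libraries were left out, by -0.80 with 2 added to each count, by -0.57 with fzy-1 at a floor of 3 counts (added after the data were seen), and by -1.44 within the replicate block (p = 1, exact permutation by flipping signs, two-sided). The log2 ratio of the summed CPM, 0.39, ranged from -0.082 without control 3 to 0.94 without control 2. What causes these shifts was not tested. Depth limits air-2 and cyb-2.1 most, with 15.7 counts per library on average.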
